A study of Arabidopsis thaliana with 6 samples.

Results

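The growth-regulating factor (GRF) genes *GRF1* to *GRF9* of *Arabidopsis thaliana* were examined for binding of the WIP zinc finger proteins TT1 and NTT. The genes were taken by their AGI locus, and the RefSeq annotation names each of the 9 products a growth-regulating factor. They are 9 of 27444 nuclear protein-coding genes. The symbols are also in use for 9 other loci, among them genes of 14-3-3 proteins, and those loci were left out. A gene was counted as bound when the summit of a deposited peak lay between 2 kb upstream of its transcription start site (TSS) and its end, and the rule used no measured value to choose the genes.

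The study expressed TT1 or NTT fused to GFP in the Col-0 accession and recovered the bound DNA with an anti-GFP antibody, followed by sequencing (ChIP-seq). Lines *Dex:TT1-GFP* (1 ChIP library and 1 input library) and *Dex:NTT-GFP* (2 ChIP libraries and 2 input libraries) were grown for 7 days and then kept for 8 h in 1 µM dexamethasone (Dex), which switches on the fusion protein. Each library came from a pool of whole seedlings, and the *35S* promoter drives the activator of the transgene, whereas *TT1* and *NTT* are normally expressed in few cell types. No uninduced seedlings and no line with GFP alone were among the ChIP-seq libraries, and no peak list of an input was used here. NTT replicates 1 and 2 are separate seedling pools, whereas TT1 has no replicate.

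The deposited list of TT1 held 12908 peaks, and those of NTT held 16167 in replicate 1 and 7447 in replicate 2. For each peak they give a fold enrichment, which is the ChIP signal at the summit divided by the background estimated around it, and a −log10 q-value from the peak caller. The study states that the background corresponded to the input and that peaks not above it were left out. The median fold enrichment over all peaks was 3.99 in the TT1 list, 5.90 in that of NTT replicate 1 and 3.94 in that of NTT replicate 2. The read depth behind the lists is not known here, and a fold enrichment carries no replicate error of its own. Strength was therefore read within each library, as the percentage of its peaks with a lower fold enrichment (percentile), and the absence of a peak means only that none was called at that depth.

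GRF proteins are plant transcription factors that promote cell proliferation in leaves and other growing organs. They bind DNA through their WRC domain and recruit coactivators of the GIF family through their QLQ domain, and the GIF proteins in turn bring SWI/SNF chromatin remodelling complexes. The microRNA miR396 pairs with the messages of most *GRF* genes and limits their amount as a leaf matures. *GRF1*, *GRF2*, *GRF3* and *GRF4* promote the growth of leaves and cotyledons with overlapping functions, *GRF5* promotes cell division in leaf primordia, *GRF7* represses the drought gene *DREB2A*, and *GRF9* restricts leaf growth.

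*GRF1*, *GRF2*, *GRF3*, *GRF4* and *GRF8* had summits in all 3 libraries. *GRF5* had a TT1 summit only, while *GRF6*, *GRF7* and *GRF9* had none. TT1 summits thus lay at 6 of the 9 genes, against 38.3% of all nuclear protein-coding genes. NTT summits lay at 5 of 9 in replicate 1, against 44.7%, and at 5 of 9 in replicate 2, against 26.8%. The same 5 genes were bound in both NTT libraries (24.4% of all genes) and in all 3 libraries (20.2% of all genes). No *GRF* gene was bound in both NTT libraries without TT1, a pattern seen at 4.22% of all genes. The pattern of *GRF5*, with TT1 and neither NTT library, was seen at 5.09% of all genes, and 47.9% had no summit at all, against 3 of the 9 *GRF* genes. With counts this small each gene weighs much, and the *GRF* shares were not tested against those of all genes.

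**Figure D1:**
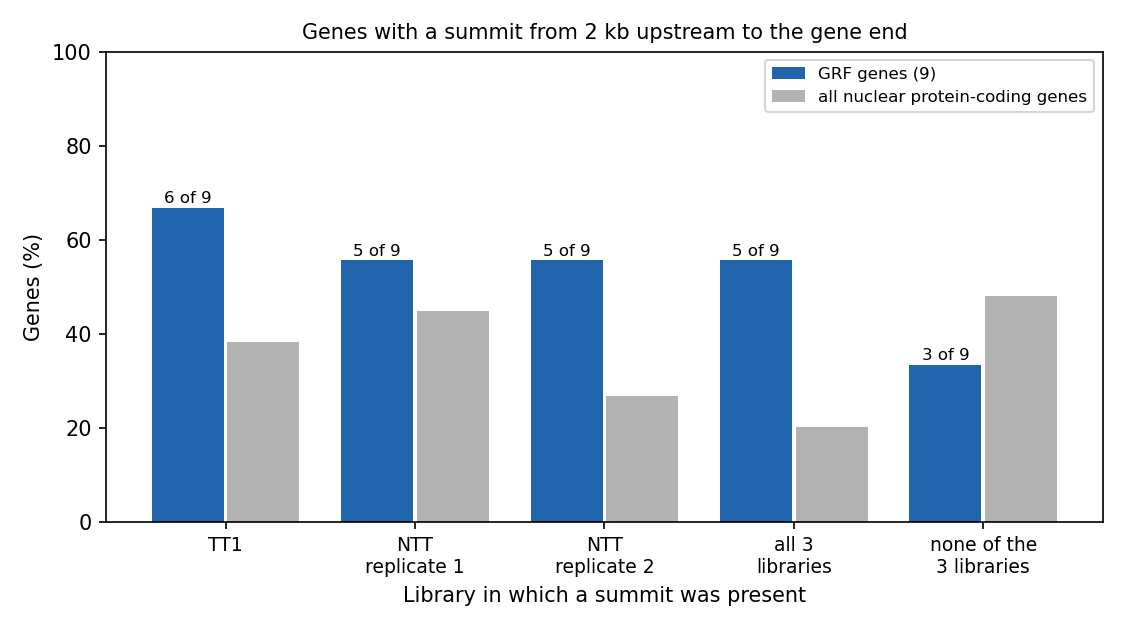
Percentage of genes (vertical axis) with a summit in the window, for the 9 *GRF* genes (blue, with counts) and all nuclear protein-coding genes (grey), by the library in which the summit was present. In all 3 libraries together, 5 of 9 *GRF* genes and 20.2% of all genes had a summit.

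The windows searched at *GRF* genes had a median length of 4531 bp, against 4078 bp over all protein-coding genes. Among the 17337 genes whose windows were within the length range of the *GRF* windows, 40.6% had a TT1 summit, 47.1% a summit of NTT replicate 1, 28.5% one of NTT replicate 2, and 21.5% had summits in all 3 libraries. Of these genes 45.1% had none. For every *GRF* summit counted, the nearest TSS of a protein-coding gene was that of the *GRF* gene itself. When each library was held to its 7447 peaks of highest fold enrichment, TT1 summits were left at 3 genes, *GRF1*, *GRF2* and *GRF3*, against 24.8% of all protein-coding genes. NTT replicate 1 kept 4 of its 5 genes and lost *GRF8*, against 24.6% of all genes, and NTT replicate 2, the shortest list, was unchanged at 5. Summits of all 3 libraries were then left at *GRF1*, *GRF2* and *GRF3*, against 13.2% of all genes.

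*GRF1* (AT2G22840) lies at chr2:9728480-9731301 on the plus strand (TAIR10) and had 3 TT1 summits, 3 of NTT replicate 1 and 2 of NTT replicate 2. Positions are given in bp from the TSS along the gene, with upstream positions negative. In the first exon, within the 5′ untranslated region (UTR), the TT1 summit lay at +258 with a fold enrichment of 6.40, and the NTT summits lay at +285 with 8.64 in replicate 1 and at +285 with 5.27 in replicate 2. These peaks ranked high in each list, at percentile 91.6 for TT1 and at 83.7 and 89.3 for NTT replicates 1 and 2. The −log10 q-value was 96.2 for TT1, with 96.9 and 39.1 for NTT replicates 1 and 2.

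A second site of *GRF1* lay upstream of the gene. Its summits were at -1029 for TT1 (fold enrichment 5.63, percentile 83.7), at -1034 for NTT replicate 1 (7.20, percentile 69.2) and at -1029 for NTT replicate 2 (3.92, percentile 49.1). The summits of the 3 libraries fell within 5 bp of each other. A weaker site, in the coding part of exon 2, had a TT1 summit at +889 (2.996, percentile 11.9) and a summit of NTT replicate 1 at +922 (4.22, percentile 14.0), and none was called in NTT replicate 2.

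The sequence under the upstream TT1 summit of *GRF1* is shown because it is the only *GRF* site with an ABRE core, ACGTG, within 100 bp of a summit. It is 121 bases long, centred on the summit, at chr2:9727391-9727511 (TAIR10, plus strand). The capitals mark CACGTG, a palindrome in which ACGTG reads on both strands, so that it counts as 2 overlapping matches.
GRF1 upstream: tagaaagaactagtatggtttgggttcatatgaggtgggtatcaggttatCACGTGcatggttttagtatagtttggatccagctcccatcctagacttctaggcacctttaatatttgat

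*GRF2* (AT4G37740) lies at chr4:17725337-17727909 on the minus strand and had a single site, in the 5′ UTR of its first exon. The TT1 summit was at +186 with a fold enrichment of 4.98 (percentile 73.8). The NTT summits were at +232 with 9.29 in replicate 1 (percentile 87.9) and at +221 with 5.02 in replicate 2 (percentile 85.3). As at *GRF1*, the peak was in the upper part of every list.

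*GRF3* (AT2G36400) lies at chr2:15270088-15273115 on the minus strand and had 2 sites. At the first, again in the 5′ UTR of exon 1, the TT1 summit lay at +217 with 5.11 (percentile 75.9) and that of NTT replicate 1 at +261 with 9.74 (percentile 90.5). NTT replicate 2 held a pair of weaker peaks there, at +259 with 3.45 (percentile 24.8) and at +29 with 3.78 (percentile 42.1). The second site was in intron 3, the last intron, with summits at +2062 for TT1 (4.58, percentile 65.9), at +2036 for NTT replicate 1 (6.62, percentile 61.7) and at +2059 for NTT replicate 2 (4.83, percentile 81.5). The 2 sites of *GRF3* changed order between libraries, since the 5′ UTR site was the stronger one for TT1 and NTT replicate 1 and the intron site for NTT replicate 2. A long non-coding RNA gene, AT2G08795, is annotated on the opposite strand within *GRF3*, and the lists cannot assign a summit to a strand.

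*GRF1*, *GRF2* and *GRF3* therefore shared a site at a similar distance from the TSS, in the 5′ UTR between +150 and +300. Summits of all 3 libraries within that interval were found at 3 of the 9 *GRF* genes and at 283 of all protein-coding genes (1.03%). The interval was chosen after the positions were seen, and its count is a description. At *GRF3* the NTT replicate 2 peak at +259 had a −log10 q-value of 19.6. It was lost when a value of at least 20 was required. The plot of summit positions shows the 3 libraries stacked over the same places.

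**Figure D2:**
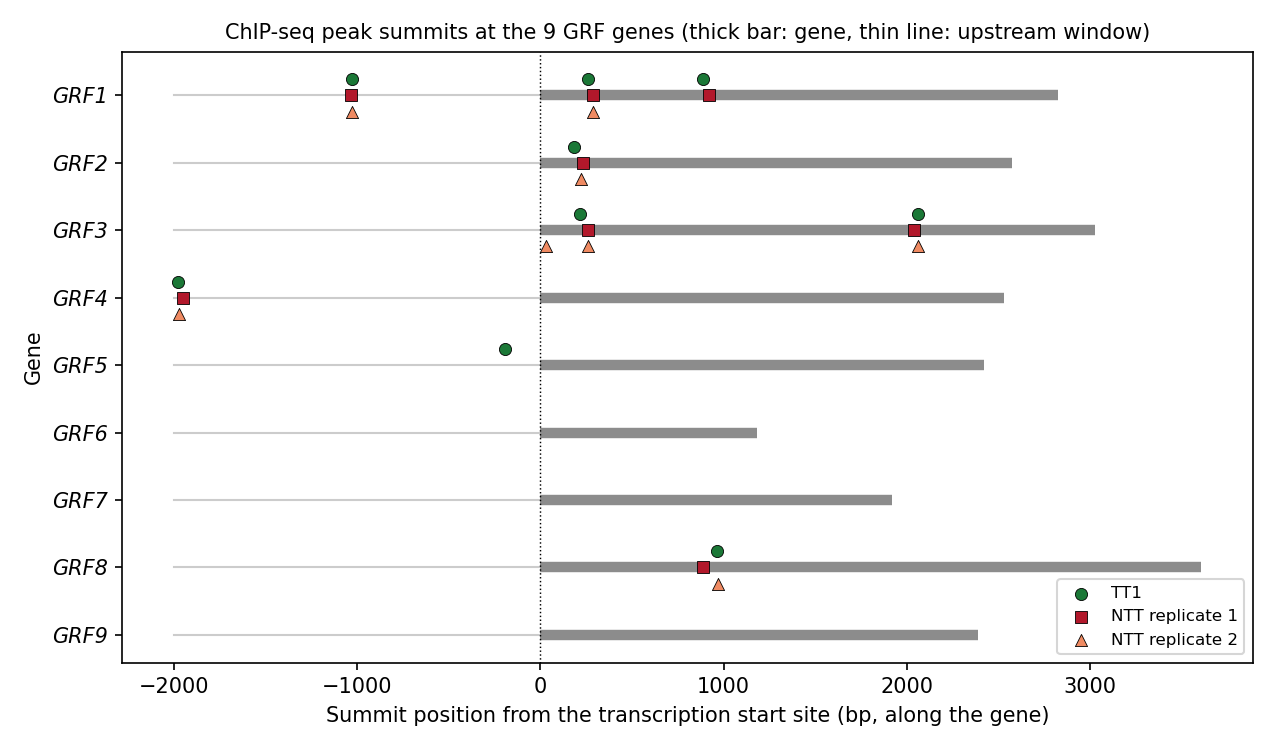
Position of each peak summit (horizontal axis, bp from the TSS along the gene) at the 9 *GRF* genes for TT1 (green circles), NTT replicate 1 (red squares) and NTT replicate 2 (orange triangles), with the gene as a thick bar and the 2 kb upstream as a thin line. *GRF1*, *GRF2* and *GRF3* carry summits of all 3 libraries between +150 and +300, and *GRF6*, *GRF7* and *GRF9* carry none.

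The 5′ UTR stretches of 30 bases below are shown because the site of *GRF1* and that of *GRF2* hold the same sequence. The sequences within 100 bp of each of the 9 TT1 summits were compared in all 36 pairs. The longest identical run, 30 bases, was between these sites of *GRF1* and *GRF2*, whereas the longest run of the other pairs was 7 to 13 bases (median 8). The run occurred 2 times in the nuclear genome, once at each of these genes. It spans +218 to +247 of *GRF1* (chr2:9728698-9728727, plus strand) and +173 to +202 of *GRF2* (chr4:17727707-17727736, minus strand). The stretch of *GRF3* was instead placed around the only GAGA repeat within 100 bp of its TT1 summit at +217. It spans +275 to +304 (chr2:15272811-15272840, minus strand). The longest run that this *GRF3* site shared with that of *GRF1* or *GRF2* was 9 bases, so it is not another copy of the run. The capitals mark CTCTCTC, which is the GAGA repeat GAGAGAG read on the other strand.
GRF1 5′ UTR: agcctcgttcttctccctctgtCTCTCTCt
GRF2 5′ UTR: agcctcgttcttctccctctgtCTCTCTCt
GRF3 5′ UTR: ctctgtcctttCTCTCTCtgcagaagaagc

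*GRF4* (AT3G52910) lies at chr3:19615977-19618507 on the minus strand. Its only site was close to the outer edge of the window, at -1975 for TT1 (2.95, percentile 10.2), at -1947 for NTT replicate 1 (7.05, percentile 67.5) and at -1971 for NTT replicate 2 (4.48, percentile 71.7). The peak was thus among the weakest of the TT1 list and above the middle of both NTT lists. With windows that began 1 kb upstream of the TSS, or that ran from 1500 bp upstream to 1000 bp downstream, *GRF4* was not counted. Farther upstream the next summits were at -2860 for TT1 and at -5860 and -2826 for NTT replicates 1 and 2.

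*GRF8* (AT4G24150) lies at chr4:12535972-12539576 on the plus strand. Its site was in intron 2 of the long transcripts, with summits at +964 for TT1 (3.68, percentile 39.3), at +888 for NTT replicate 1 (5.45, percentile 41.7) and at +971 for NTT replicate 2 (4.80, percentile 81.0). A shorter annotated transcript of *GRF8* starts at +1318, and relative to that start the summits lay upstream by 354 bp for TT1 and by 430 and 347 bp for NTT replicates 1 and 2. The site ranked below the middle of the TT1 list and of the NTT replicate 1 list, but high in that of NTT replicate 2.

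*GRF5* (AT3G13960) lies at chr3:4608076-4610497 on the plus strand. Its TT1 summit at -190 had a fold enrichment of 3.39, a percentile of 27.8 and a −log10 q-value of 28.5. NTT replicate 1 had its nearest summit 157 bp beyond the gene end, with a fold enrichment of 6.21, where TT1 also had one at 374 bp (3.33). The difference between TT1 and NTT at *GRF5* rests on 1 TT1 library. It has no replicate check, and NTT signal below the threshold of the lists would not be seen.

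The 121 bases around 4 summits are shown next, 5′ to 3′ on the strand of the gene, so that the sites of *GRF3*, *GRF4*, *GRF5* and *GRF8* can be compared. They lie at chr2:15270993-15271113 for *GRF3* (minus strand, TT1 summit), chr3:19620422-19620542 for *GRF4* (minus strand, TT1 summit), chr3:4607826-4607946 for *GRF5* (plus strand, TT1 summit) and chr4:12536800-12536920 for *GRF8* (plus strand, summit of NTT replicate 1). The capitals mark GAGAGAG or its reverse complement, and the sequence of *GRF5* has no match. Near its start it holds AGAGAGA, which alternates in the same way but starts with the other base. For *GRF8* the summit shown is the only one with a match within 100 bp, and those of TT1 and NTT replicate 2 had none.
GRF3 intron 3: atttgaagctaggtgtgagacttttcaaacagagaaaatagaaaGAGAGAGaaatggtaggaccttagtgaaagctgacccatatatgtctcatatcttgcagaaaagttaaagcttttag
GRF4 upstream: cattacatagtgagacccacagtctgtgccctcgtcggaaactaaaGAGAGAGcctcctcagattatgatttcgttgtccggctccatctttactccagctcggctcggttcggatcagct
GRF5 upstream: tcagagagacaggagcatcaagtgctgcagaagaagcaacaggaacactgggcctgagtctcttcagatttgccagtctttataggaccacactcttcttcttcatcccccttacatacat
GRF8 intron 2: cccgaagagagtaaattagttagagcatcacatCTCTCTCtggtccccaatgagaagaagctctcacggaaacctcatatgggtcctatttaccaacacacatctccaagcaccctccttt

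The 3 genes without a summit are *GRF6* (AT2G06200, chr2:2426176-2427355, plus strand), *GRF7* (AT5G53660, chr5:21794177-21796092, plus strand) and *GRF9* (AT2G45480, chr2:18745249-18747634, plus strand). The summit nearest to *GRF6* in any library was one of TT1 at +10655. At *GRF7* the nearest upstream summits were those of NTT, at -3014 and -3031 in the 2 libraries, close to the start of the neighbouring gene AT5G53650. At *GRF9* the nearest upstream summits of the 3 libraries lay between -3274 and -3458. Nearer ones lay beyond the gene end, by 2199 bp for TT1 and by 1508 and 2172 bp for NTT replicates 1 and 2. These peaks were outside the window and were not counted.

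Seen over the family, the strength of the sites ranged widely. The strongest summit of a bound *GRF* gene had a median fold enrichment of 4.33 for TT1, against 4.22 over all protein-coding genes bound by TT1. The median was 8.64, against 6.44, in NTT replicate 1 and 4.83, against 3.97, in NTT replicate 2. Ranked among all bound genes by that summit, the *GRF* genes had a median percentile of 50.3 for TT1 (7.73 to 89.4), 78.5 for NTT replicate 1 (33.3 to 87.1) and 80.7 for NTT replicate 2 (70.5 to 88.9). Averaged over the 3 libraries the order was *GRF1* (85.6), *GRF3* (79.6), *GRF2* (78.9), *GRF8* (48.6) and *GRF4* (45.8). In NTT replicate 1, however, *GRF1* (78.5) was below *GRF3* (87.1) and *GRF2* (83.8). With 78.5 and 88.9 for *GRF1* in NTT replicates 1 and 2, its first place is not secure. *GRF3* and *GRF2* were less than 1 apart, and *GRF8* and *GRF4* less than 3, whereas the NTT replicates of *GRF8* alone were at 33.3 and 80.2, so that neither pair can be put in order.

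**Figure D3:**
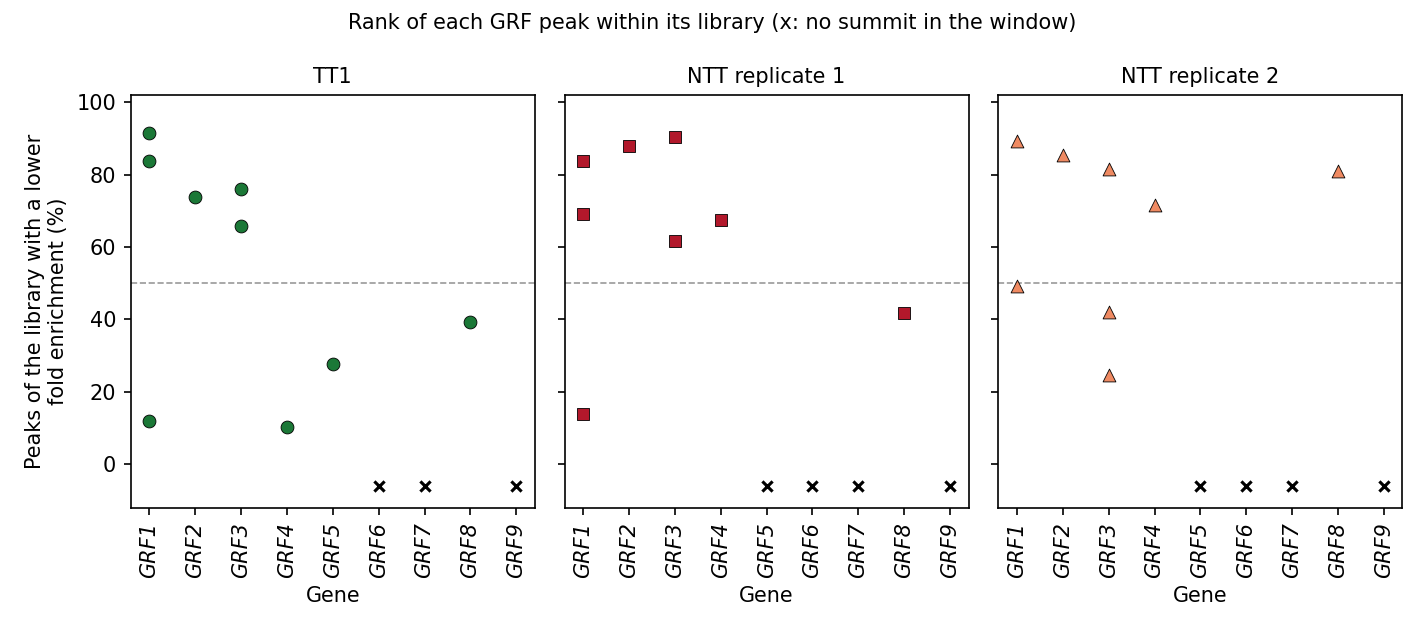
Percentage of the peaks of the same library that had a lower fold enrichment (vertical axis) for every summit at each *GRF* gene (horizontal axis), in 1 panel for each library, where crosses mark genes without a summit and the dashed line marks the median peak. Summits of *GRF1*, *GRF2* and *GRF3* reach above 70 in every panel, whereas that of *GRF4* is at 10.2 for TT1.

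*GRF1* had the highest mean percentile, and the genes with the most similar percentiles in the 3 libraries were AT3G58060 (Euclidean distance 1.48) and AT5G47020 (1.66). The comparison covered the 5548 genes bound in all 3 libraries, 130 of which were within a distance of 10 of *GRF1*.

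The *GRF* summits were spread over the upstream sequence, the start of the gene and its later part. Of the 9 TT1 summits, 3 were upstream, 3 in the first 500 bp and 3 farther into the gene. Over all protein-coding genes the TT1 shares were 62.7%, 23.3% and 14.0%. NTT replicate 1 had 2, 3 and 3 summits in these places, against 56.8%, 29.5% and 13.7%, and NTT replicate 2 had 2, 4 and 2, against 56.5%, 33.0% and 10.5%. The shares over all genes are of 14356 pairs of a gene and a summit for TT1, and of 18545 and 8928 for NTT replicates 1 and 2. In them a summit in the windows of several genes was counted once for each gene, so they are not strictly like the *GRF* counts. A bound *GRF* gene had on average 1.5 summits of TT1, 1.6 of NTT replicate 1 and 1.6 of NTT replicate 2, against 1.36, 1.51 and 1.21 over all bound genes.

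TT1 and NTT summits shared most positions at the *GRF* genes. Of the 9 TT1 summits, 7 were within 100 bp of a summit in both NTT libraries, against 31.8% of the 10714 TT1 summits in windows of protein-coding genes. The exceptions were the site of *GRF1* at +889 and that of *GRF5*. By library, 8 of the 9 were within 100 bp of a summit of NTT replicate 1, against 63.7% of those 10714 summits. For NTT replicate 2, the shortest list, the count was 7, against 36.3%. At the 7 sites the TT1 summit was 5 to 76 bp from that of NTT replicate 1 (median 28 bp) and 0 to 42 bp from that of NTT replicate 2 (median 7 bp). The NTT replicates differed from each other by 0 to 83 bp at these sites, a range that overlaps the distances between the proteins. When peaks had to share 50% of both lengths in place of the distance between summits, 3 sites counted.

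The study listed the GAGA repeat, a bZIP (ABI5) motif and the W-box as top motifs of the sites common to TT1 and NTT. It reported the GAGA repeat at down-regulated bound genes and the W-box at up-regulated ones. These motifs thus came from the same ChIP-seq data. The GAGA repeat and the W-box were searched at the *GRF* summits together with the ABRE core. A GAGA repeat (GAGAGAG on either strand) lay within 100 bp of 5 of 9 TT1 summits, 7 of 8 summits of NTT replicate 1 and 5 of 8 of NTT replicate 2. The shares over all summits at protein-coding genes were 17.5% in TT1 and 23.7% and 28.1% in NTT replicates 1 and 2. The repeat was present at the 5′ UTR sites of *GRF1*, *GRF2* and *GRF3*, at the intron site of *GRF3* and at the upstream site of *GRF4*. At *GRF8* it was within 100 bp of the summit of NTT replicate 1 alone, although the whole peak held 6 matches in each library. In the coding exon of *GRF1* it was within 100 bp of the summit of NTT replicate 1 and not of that of TT1. There the whole TT1 peak held 2 matches and that of NTT replicate 1 held 0. It was absent within 100 bp of the upstream summits of *GRF1*, of the *GRF5* summit and of the *GRF3* summit of NTT replicate 2 at +29. At *GRF5* an alternating stretch of 7 bp, AGAGAGA, was not counted because it starts with the other base. Where GAGAGAG was present, at 17 of 25 summits, the centre of the nearest match lay 7 to 94 bp from the summit (median 24 bp). The longest alternating stretch, 16 bp with 5 overlapping matches, was in the 5′ UTR of *GRF1*.

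The other motifs were sparse. A W-box (TTGACC or TTGACT on either strand) was within 100 bp of 2 of 9 TT1 summits and of 1 of 8 summits in each NTT library, against 32.1% of all TT1 summits and 27.7% and 26.8% of those of NTT replicates 1 and 2. The W-boxes were at the coding exon site of *GRF1*, for TT1 and NTT replicate 1, and at the upstream site of *GRF4*, for TT1 and NTT replicate 2. The ABRE core was at the single *GRF1* site in each library, against 29.0% of all TT1 summits and 25.0% and 34.2% of those of NTT replicates 1 and 2. The motif counts of the 3 libraries are not independent, since the libraries share most of the sites. Nor are the GAGA repeats in the 5′ UTRs of *GRF1* and *GRF2* separate cases, since the identical run of 30 bases holds one. The shares over all summits were not matched for position, and fewer *GRF* summits lay upstream (3 of 9 for TT1, against 62.7%).

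**Figure D4:**
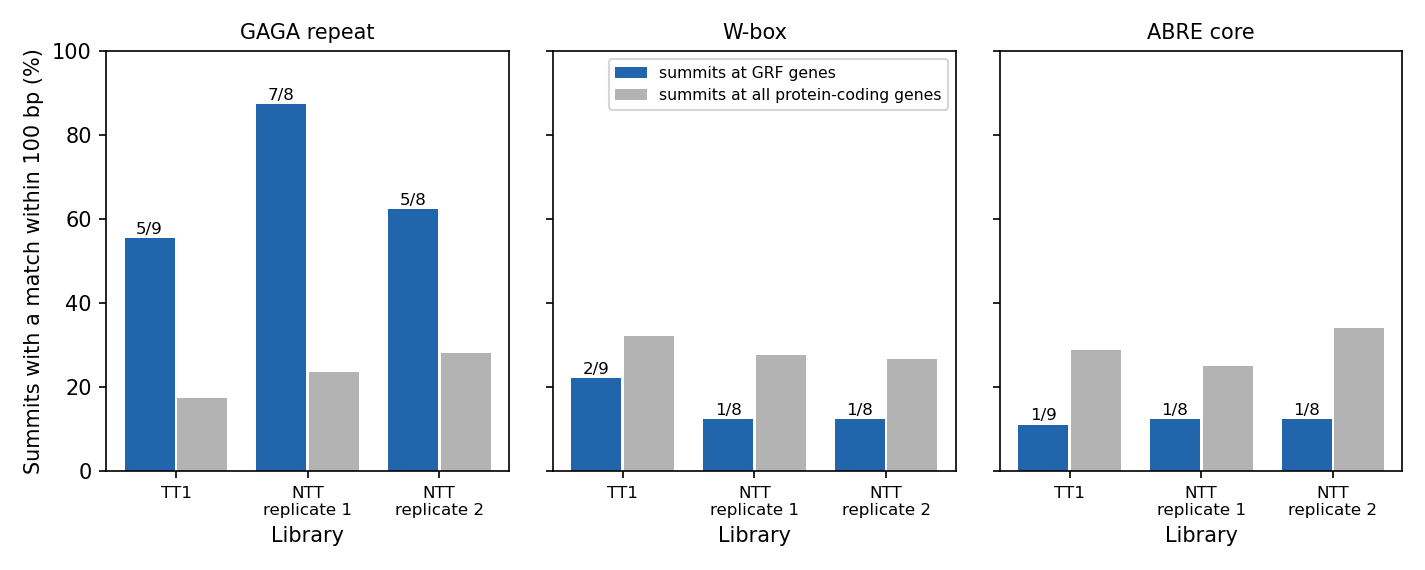
Percentage of summits with a motif within 100 bp (vertical axis) for summits at *GRF* genes (blue, with counts) and at all protein-coding genes (grey), by library, in 1 panel for each motif. The blue bars exceed the grey ones for the GAGA repeat in the 3 libraries, with 5 of 9, 7 of 8 and 5 of 8 summits, and are below them for the W-box and the ABRE core.

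A GAGA repeat in the window did not separate bound from unbound *GRF* genes. All 9 windows held one, against 73.3% of the windows of protein-coding genes. The unbound *GRF6*, *GRF7* and *GRF9* had 4, 6 and 3 matches, whereas *GRF1*, *GRF2*, *GRF3*, *GRF4* and *GRF8*, bound in all 3 libraries, had 7, 5, 5, 10 and 8. The highest number, 21, was in the window of *GRF5*, which had no match within 100 bp of its TT1 summit. An alternating stretch of 7 bp, AGAGAGA, did lie there, but it is not a match because it starts with the other base.

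The target site of miR396 is the best known regulatory sequence of the family, and it was compared with the peaks. The mature miR396a-5p and miR396b-5p, read from the genome at their annotated positions, chr2:4142443-4142463 (minus strand) and chr5:13611808-13611828 (plus strand), differ in their last base and share their seed (bases 2 to 8, in capitals). The sites of 4 *GRF* genes are written as the DNA of the coding strand, with the 6 bases that pair with bases 2 to 7 of the miRNA in capitals.
miR396a-5p: uUCCACAGcuuucuugaacug
miR396b-5p: uUCCACAGcuuucuugaacuu
GRF1 site: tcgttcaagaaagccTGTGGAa
GRF3 site: ccgttcaagaaagccTGTGGAa
GRF7 site: tcgttcaagaaagcaTGTGGAa
GRF9 site: acgttcaagaaagctTGTGGAa

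A site of this kind, with 1 or 2 mismatches and 1 bulged base, was found in the coding sequence of 7 of the 9 genes, that is all but *GRF5* and *GRF6*. The 5 genes bound in all 3 libraries were among these 7, and the other 2 were *GRF7* and *GRF9*, at which no summit was found. None of the sites lay in a peak of any library. The site of *GRF1* began at +1464, and that of *GRF3* at +1349, between its 5′ UTR and intron peaks.

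Genes that act with the *GRF* family or on it were counted in the same way. Among 9 partners and regulators, 4 had a TT1 summit (38.3% of all protein-coding genes), 6 one of NTT replicate 1 (44.7%) and 3 one of NTT replicate 2 (26.8%), counts near those shares for a list of this size. The list was not tested against the shares, which cover protein-coding genes only. It includes the miRNA genes *MIR396A* and *MIR396B*, and its windows ranged from 2135 to 19067 bp. Against 20.2% of all genes, 3 of the 9 had summits in all 3 libraries, namely *GIF1*, *TCP4* and *CHC1*, a gene of a SWI/SNF subunit. *GIF1*, the coactivator also known as *AN3*, had TT1 summits at +439 (4.99, percentile 74.0) and +1274 (3.59, percentile 35.6). Its summits of NTT replicate 1 were at +517 (7.52, percentile 73.0) and +203 (6.88, percentile 65.5), and 1 of NTT replicate 2 was at +114 (4.09, percentile 56.9). *GIF2* had a TT1 summit at +91 (3.30) and one of NTT replicate 1 at +47 (4.41), and *GIF3* had none. Of the genes that produce miR396, *MIR396A* had no summit, and *MIR396B* had one of NTT replicate 1 alone, at -194 (3.47, percentile 2.46). At *TCP4*, whose product activates *MIR396B*, a site in the 5′ UTR had fold enrichments of 3.61 for TT1 and of 12.1 and 4.49 for NTT replicates 1 and 2. The percentiles of these peaks were 36.7 for TT1 and 97.9 and 72.2 for NTT replicates 1 and 2.

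Of 4 genes reported to be controlled by GRF proteins, *DREB2A*, which encodes a factor of the drought response, had an upstream site in all 3 libraries, at -801 for TT1 (2.68), at -799 for NTT replicate 1 (4.91) and at -774 for NTT replicate 2 (2.95). Its peaks ranked low, at percentile 3.43 for TT1 and at 30.3 and 6.20 for NTT replicates 1 and 2. These summits were nearer to the start of the neighbouring gene AT5G05400. *KNAT2*, a homeobox gene of the shoot meristem, had a TT1 summit at +4769 (3.77, percentile 42.6) only, and *PLT1* and *PLT2*, which maintain the root stem cell niche, had none. Of the 4 genes, 2 thus had a TT1 summit (38.3% of all protein-coding genes), and 1 had one in each NTT library (44.7% and 26.8%). Summits of all 3 libraries were at 1 gene (20.2%), and these counts are near those shares for a list of this size.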

How the data were processed

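ChIP-seq was performed on seedlings of *Dex:TT1-GFP* (1 library) and *Dex:NTT-GFP* (2 libraries), each with its input. According to the study's methods and the submitters' processing notes, FastQC, BWA for mapping, SAMtools for keeping uniquely mapped reads and Picard for discarding duplicates preceded peak calling in each library, for which the authors used MACS2 2.1.2. The files use TAIR10. In the deposited lists, the score is the authors' −log10 q-value multiplied and truncated, the fold enrichment is the authors' ratio at the summit, and both −log10 columns (p-value, q-value) were deposited as MACS2 gave them. A stringent cut was applied before deposit, since the lowest −log10 q-value was 9.41 in the TT1 list and 9.14 and 9.01 in those of NTT replicates 1 and 2. Weaker sites are therefore missing, and peak numbers depend on depth, which is unknown here.

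All deposited peaks were used. Summits were assigned to every gene whose window, from 2000 bp upstream of the most upstream TSS to the gene end, held them, with gene models of the RefSeq annotation (TAIR10.1, with the nuclear coordinates of TAIR10). Sequences were read from the same RefSeq assembly. Python 3.11.15, NumPy 2.4.6, pandas 2.3.3 and Matplotlib 3.10.9 were used, and the assignment was tested on simulated data. No test between conditions was possible with 1 TT1 library, so that counts are given beside those of all genes.

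The members, gene lists, motifs and windows were chosen with earlier results of these data known. Values were given for the 9 *GRF* genes, *GIF1* to *GIF3*, *MIR396A*, *MIR396B* and the *GRF* targets. They were also given for up to 6 organ-growth genes bound in all 3 libraries with the highest mean percentile. The 2 genes most like the *GRF* gene of highest mean percentile were named too, while *TCP4* was added after its values were seen. Alternatives varied the q-value threshold, the window, the number of peaks, the overlap, the motif window and the NTT library.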

Additional observations from a re-analysis of the deposited data

How the results depend on the processing

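Of 68 alternative values, 59 stayed within 1.5 times the main count and 37 did not change. With the same number of peaks in each library, the *GRF* genes with a TT1 summit numbered 3 rather than 6, and those with summits in all 3 libraries 3 rather than 5, since the TT1 peaks of *GRF4*, *GRF5* and *GRF8* had fold enrichments below the lowest one kept (3.77). With peaks sharing at least 50% of both lengths, 3 TT1 summits counted as shared with both NTT libraries, rather than 7. With 50 bp to either side of the summit, W-boxes were at 1 TT1 summit (2 in the main search) and 0 summits of NTT replicate 2 (1 in the main search). With the whole peak searched, W-boxes were at 2 summits of NTT replicate 1 (1 in the main search), and ABRE cores at 3 TT1 summits, 2 of NTT replicate 1 and 2 of NTT replicate 2 (1 each in the main search). GAGA repeat counts stayed within 1.5 times under every alternative. With the whole peak searched, the repeat was at 7 of 9 TT1 summits, 6 of 8 of NTT replicate 1 and 6 of 8 of NTT replicate 2. The shares over all summits at protein-coding genes were then 24.4%, 27.6% and 29.9%. Without NTT replicate 1 or without NTT replicate 2, genes bound by NTT numbered 5 to 5, genes bound in all libraries 5 to 5, and shared TT1 summits 7 to 8. No paired analysis was possible because TT1 has 1 library and the counts come from no test. Read depth is unknown here, so that an absent peak shows only that none was called.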

Other observations

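Other genes known to set organ size were counted in the same way. Of 16 organ-growth genes, 8 had a TT1 summit (38.3% of all protein-coding genes), 9 one of NTT replicate 1 (44.7%) and 8 one of NTT replicate 2 (26.8%), and 7 had summits in all 3 libraries (20.2%). The list was not tested against all genes. *ARL*, which promotes cell expansion, had a site near its start at +131 for TT1 (fold enrichment 4.94), at +92 for NTT replicate 1 (11.9) and at +98 for NTT replicate 2 (7.05), and a site upstream at -509 for TT1 (6.23), at -501 for NTT replicate 1 (13.2) and at -515 for NTT replicate 2 (5.86). Its mean percentile among bound genes, 95.3, was above that of *GRF1*. *ARGOS*, an auxin-induced promoter of organ growth, had summits at +42 for TT1 (6.76), at +42 for NTT replicate 1 (12.4) and at +47 for NTT replicate 2 (4.21). *UBP15*, which encodes a deubiquitinating enzyme that promotes cell proliferation, had summits at +92 for TT1 (5.41), at +91 for NTT replicate 1 (8.68) and at +86 for NTT replicate 2 (4.71). *EBP1*, a promoter of cell growth, had summits at -26 for TT1 (6.81), at -24 for NTT replicate 1 (5.06) and at -46 for NTT replicate 2 (4.02). The mean percentiles of *ARGOS*, *UBP15* and *EBP1* were 83.7, 77.6 and 57.3. AT4G36860 and *SAP* had mean percentiles of 45.6 and 43.5, and their strongest TT1 and NTT summits were at different places. These lay at -739 for TT1 and at +171 and +175 for NTT replicates 1 and 2 at AT4G36860. At *SAP* they lay at +527 for TT1 and at +11 and +9 for NTT replicates 1 and 2. No summit was found at 6 genes of the list, among them *ANT*, *JAG* and *BB*.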
